A study of Mus musculus with 12 samples.

Results

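The effect of the eliciting cytokine was taken within sorted stages of bone marrow-derived basophils (BMBAs). That is, 6 libraries of TSLP-elicited cells were set against 6 of IL-3-elicited cells with the stage held as a covariate. Genes were kept where the effect had the same sign in immature and in mature cells. All 12 libraries of the series entered this comparison. Of 31301 genes in the table, 10861 had enough counts to be tested, 2780 were called at an adjusted p under 0.05 (25.6% of those tested), and 2764 of these had the same sign in both stages. With TSLP, 1419 of them were higher (13.1% of the genes tested) and 1345 were lower (12.4%).

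Bone marrow cells of wild-type C57BL/6J mice were grown for 7 days with recombinant IL-3 at 0.3 ng/mL or with recombinant TSLP at 1 µg/mL, a dose that the treatment labels write in mg/mL. Sorting by FACS then took FcεRIαhi CD49blo cells as the immature stage (the pre-basophils of the study) and FcεRIαlo CD49bhi cells as the mature stage, and 3 libraries of each were sequenced. The 4 groups were therefore IL-3 immature, TSLP immature, IL-3 mature and TSLP mature, and no group was without one of the cytokines. Stage below means the sort gate, and whether cells of 1 gate were equally mature with both cytokines was not tested. The study compared the cultures to see how basophils elicited by TSLP relate to the maturation stages found with IL-3.

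IL-3 binds a receptor of the IL-3 receptor α chain (Il3ra) and the β common chain (Csf2rb, and in mice also the close copy Csf2rb2), which carries the kinase JAK2 and passes the signal to the transcription factor STAT5. TSLP binds a receptor of its own chain (Crlf2) and the IL-7 receptor α chain (Il7r), which uses JAK1 and JAK2 and also reaches STAT5. Both cytokines are known to support the growth of basophils from bone marrow, and basophils grown with either carry the high-affinity IgE receptor and make IL-4, IL-6 and histamine.

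Totals ran from 1720065 to 3685285 counts per library, and levels below are CPM, that is, counts scaled to equal library size after TMM normalisation (the trimmed mean of M values). The summed level of 9 basophil markers ran from 41218 to 44806 CPM in IL-3 immature and from 28981 to 32006 in TSLP immature libraries. It ran from 11601 to 14382 in IL-3 mature and from 9218 to 12487 in TSLP mature libraries. The largest single marker was the protease Prss34 in every immature and the protease Mcpt8 in every mature library, and the immature sums mostly follow such protease genes. Of 7 mast cell markers none had enough counts to be tested, and their sum was at most 8.90 CPM. The ribosomal RNA precursor Rn45s took 10.7% ± 1.89 of the counts of the IL-3 and 16.2% ± 3.95 of those of the TSLP libraries (SD, n = 6), a difference of 5.54 percentage points (exact two-sided permutation within stage, p = 0.02, smallest possible 0.005). Its mature parts Rn18s, Rn28s1 and Rs5-8s1 have entries of their own that together held 0.983 to 0.999 times the counts of Rn45s in every library, as if each read was counted under both, and the 4 entries summed to 21.3% ± 3.79 and 32.3% ± 7.87 of the counts. 3 RNAs without a poly(A) tail, picked after their values were seen, were also higher with TSLP, by 2.34 ± 0.54 (log2 ± SE) for the 5S ribosomal RNA copy n-R5s134, 2.12 ± 0.40 for the U1 spliceosomal RNA Rnu1a1 and 1.87 ± 0.35 for Rmrp, with adjusted p of 0.00465, 0.00131 and 0.00116. The part of these differences in the results below was not tested, except that the counts of genes called were taken again without Rn45s and without all 4 ribosomal RNA entries. The libraries of a group come from separate cultures per the methods. The p-values of the fit with stage as a covariate measure the spread between cultures together with any difference of the effect between stages. All 12 libraries were treated as independent, and whether immature and mature cells came from the same culture is not given. RNA of sorted bulk cells cannot tell fewer cells with a transcript from less transcript per cell.

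**Figure D1:**
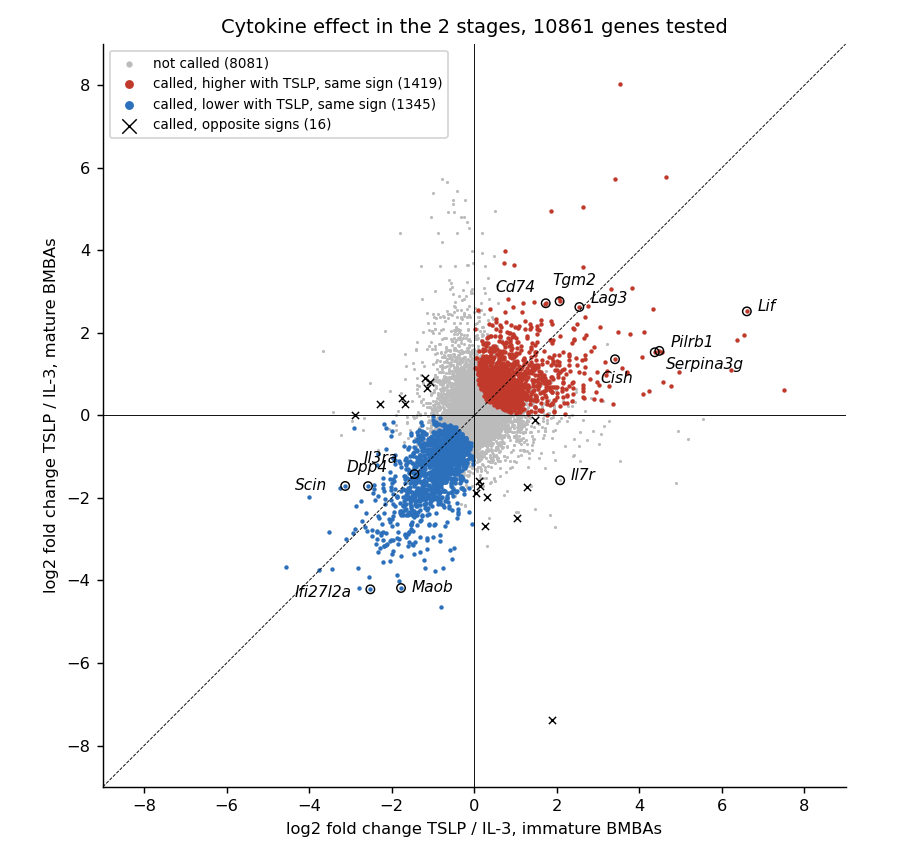
Each point is 1 of 10861 genes, with the log2 fold change of TSLP against IL-3 in immature BMBAs on the x axis and in mature BMBAs on the y axis. Red and blue points are the 1419 higher and 1345 lower genes with the same sign in both stages, crosses are the 16 called genes with opposite signs, and the dashed line marks an equal effect in both stages.

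That called genes mostly had the same sign in both stages follows in part from the test, which favours genes whose effects agree between stages. Of all genes tested, 7205 (66.3%) had the same sign in both stages whether called or not. Among the 2764 called with the same sign, 1040 changed at least 2-fold, 354 of them higher and 686 lower, and 641 passed the threshold within each stage on its own. The effect was larger in mature cells for 1713 and in immature cells for 1051 of the 2764, and for 104 of them the difference between the stages was itself called (455 of all genes tested, 4.19%). Every TSLP library lay above every IL-3 library of its stage for 801 of the genes tested (7.38%) and below it for 829 (7.63%). The share of higher genes among those called depended on the scaling: it was 51.3% with TMM over all genes, and with the size factors of DESeq2 1194 genes were higher and 1458 lower (45.0% higher). It came to 45.5% without Rn45s and to 42.6% without all 4 ribosomal RNA entries, and each single gene below is therefore read against the median of all genes tested, a log2 fold change of 0.064.

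Lag3 and Tgm2 had large increases in both stages. Lag3, an inhibitory receptor that binds MHC class II (chr6:124904361-124911705, reverse strand, GRCm38), stood at 5.34, 3.71 and 5.96 CPM in IL-3 immature, 31.0, 23.8 and 32.0 in TSLP immature, 8.19, 6.56 and 5.41 in IL-3 mature and 45.1, 39.4 and 41.8 in TSLP mature libraries. All 6 TSLP libraries lay far above all 6 IL-3 libraries, whatever the stage. The log2 fold change was 2.59 ± 0.17 (adjusted p = 2.65e-07), with 2.55 in immature and 2.63 in mature cells and a difference between stages of 0.08 (95% interval −0.68 to 0.84). Tgm2, the cross-linking enzyme transglutaminase 2 (chr2:158116402-158146436, reverse strand), stood at 24.3, 13.4 and 15.9 CPM in IL-3 immature, 71.6, 83.2 and 65.7 in TSLP immature, 9.62, 9.47 and 9.47 in IL-3 mature and 63.4, 67.8 and 63.7 in TSLP mature libraries. Its groups did not overlap either, and the log2 fold change was 2.39 ± 0.18 (adjusted p = 7.94e-07), with a difference between stages of 0.70 (95% interval 0.06 to 1.34). Tgm2 shares 1003 exonic bases with genes on the opposite strand in the annotation, and whether strand was used in counting is not given in the sources used here. Mgl2, a galactose-binding C-type lectin, rose by 2.46 ± 0.33 (adjusted p = 1.22e-04), with a difference between stages of −0.32 (95% interval −1.91 to 1.26). Mgl2 stood at 1.46, 1.14 and 1.32 CPM in IL-3 immature and 10.2, 12.5 and 3.06 in TSLP immature libraries. In mature libraries it stood at 10.3, 9.84 and 9.47 with IL-3 and at 83.6, 42.8 and 27.4 with TSLP. It was highest in TSLP mature 1, the library with the high B cell markers described below, and rose by 2.02 without that library. The part of other cells in the rise of Mgl2 was not tested. Part of its sequence, 12.2% of all stretches of 50 bases, is also found in its neighbour Clec10a.

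Smpdl3a and Gm34746 were among the higher genes with at least a 2-fold change that had the narrowest intervals around an equal effect. For Smpdl3a, a secreted phosphodiesterase, the log2 fold changes were 1.25 in immature and 1.29 in mature cells with a difference of 0.04 (95% interval −0.59 to 0.67), and for the uncharacterised Gm34746 they were 1.20 in immature and 1.26 in mature cells. The lower genes chosen in the same way were Erg, an ETS transcription factor of early blood cells, Asrgl1, an asparaginase, and the mitochondrial assembly factor Fmc1. For Asrgl1 and Fmc1 the SE of the difference between stages, 0.07 and 0.006, was far below the SEs within the stages. These were 0.23 and 0.26 for Asrgl1 and 0.41 and 0.57 for Fmc1 in immature and mature cells. Their intervals are therefore too narrow to show an equal effect. Erg stood at 34.4, 21.4 and 23.2 CPM in IL-3 immature, 9.62, 8.99 and 8.85 in TSLP immature, 18.5, 12.4 and 15.3 in IL-3 mature and 5.13, 4.82 and 6.15 in TSLP mature libraries. Its TSLP libraries were all below its IL-3 libraries, and the effects of −1.50 in immature and −1.52 in mature cells differed by −0.02 (95% interval −0.68 to 0.65). Asrgl1 changed by −1.11 in immature and −1.11 in mature cells. Fmc1 has a transcript of 479 bases and lost its call with the offsets for transcript length described below (log2 fold change −0.73). Those offsets left transcripts of this length class above the median of all genes.

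The α chain of the IL-3 receptor was lower in cells grown with TSLP. Il3ra (chr14:14346275-14356011, forward strand) stood at 279.9, 140.3 and 248 CPM in IL-3 immature, 94.7, 87.9 and 61.3 in TSLP immature, 183, 178 and 185 in IL-3 mature and 83.6, 61.6 and 57.8 in TSLP mature libraries. No TSLP library reached the lowest IL-3 library of its stage. The log2 fold change was −1.44 ± 0.18 (adjusted p = 5.53e-05), and it was −1.45 in immature and −1.42 in mature cells, a difference of 0.03 (95% interval −0.70 to 0.75). Of the 20 receptor, JAK and STAT genes tested, 7 were called higher and Il3ra alone was called lower.

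The β chains moved the other way and by less, mostly in immature cells. Csf2rb stood at 1864, 1702 and 1707 CPM in IL-3 immature, 2659.8, 2701 and 3447 in TSLP immature, 5793, 5961 and 6160.0 in IL-3 mature and 5643, 6611 and 8424 in TSLP mature libraries. The groups did not overlap in immature cells but did in mature cells, where TSLP mature 1 was below all 3 IL-3 libraries. Its log2 fold change was 0.47 ± 0.17 (adjusted p = 0.0461), and the call was lost in 23 of 27 other fits. Csf2rb2 rose by 0.55 ± 0.17 (adjusted p = 0.0215) and lost its call in 7 of 27, and its groups also overlapped in mature cells. The effect in immature cells was 0.74 for Csf2rb and 0.90 for Csf2rb2. In mature cells it was 0.21 and 0.22 (adjusted p = 0.466 and 0.432 for that stage alone). The pair share 18.4% of the 50-base stretches of Csf2rb2, so reads could be split between them.

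Among the signalling genes behind these receptors, Stat5a, 1 of the pair of STAT5 genes, rose by 0.63 ± 0.13 (adjusted p = 0.00268) and was called in all 27 other fits. Stat5a stood at 31.5, 42.0 and 43.0 CPM in IL-3 immature, 59.5, 54.3 and 49.7 in TSLP immature, 43.5, 45.5 and 51.0 in IL-3 mature and 87.1, 68.9 and 84.0 in TSLP mature libraries, and its groups did not overlap in either stage. The phosphatase Ptpn6 (SHP-1), which dampens cytokine and IgE receptor signals, rose by 0.57 ± 0.13 (adjusted p = 0.0048). Sh2b3 (LNK), an adaptor that restrains JAK2, rose by 0.55 ± 0.15 (adjusted p = 0.0118). Stat3, at 0.47 ± 0.15, and the kinase Jak3, at 0.47 ± 0.17, had adjusted p of 0.0273 and 0.0475, and the calls were lost in 16 and 23 of 27 other fits. The remaining 12 genes did not pass the test, among them Crlf2 at 0.29 ± 0.14 (adjusted p = 0.149), Jak1 at 0.28 ± 0.15, Jak2 at 0.20 ± 0.18 and Stat5b at 0.32 ± 0.13. Il7r had opposite effects, 2.08 in immature and −1.57 in mature cells, which differed by −3.65 (95% interval −4.32 to −2.99), so it has no effect common to both stages.

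Of 22 tested members of a list of genes that STAT5 is known to induce, 10 were called higher and 0 lower. The median log2 fold change was 0.52 against 0.064 over all genes tested. In 7 of the 22 every TSLP library lay above every IL-3 library of its stage, against 7.38% of all genes tested. Counts of this and the other lists are descriptions only. Lists and members were chosen with earlier results of these data known, and some genes are on more than 1 list. Over all genes tested 13.1% were called higher and 12.4% lower, and the counts of each list are to be read against these shares. Cish, a feedback inhibitor of the SOCS family (chr9:107296026-107302784, forward strand), stood at 6.79, 11.1 and 14.6 CPM in IL-3 immature, 104, 104 and 147 in TSLP immature, 101, 92.2 and 81.6 in IL-3 mature and 233, 238 and 235 in TSLP mature libraries. The lowest levels were in IL-3 immature cells, TSLP immature lay just above IL-3 mature cells, and TSLP mature cells held the highest. The log2 fold change was 2.27 ± 0.31 (adjusted p = 1.16e-04), larger in immature (3.41) than in mature cells (1.36). In the annotation 740 exonic bases of Cish are shared with opposite-strand genes.

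STAT5 binds the palindrome TTCNNNGAA, and Cish was the only called member of this list whose promoter held it, among the 5 with a promoter sequence in RefSeq (GRCm38.p6). The sites are shown because they are paired right at the start of the RefSeq transcript, at chr9:107296654-107296683, forward strand, which lies downstream of the first base of the GENCODE gene given above. The matches are in capitals, and the second ends 20 bases into the RefSeq transcript.
Cish start site: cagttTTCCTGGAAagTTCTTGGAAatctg
In windows of 250 bases before to 50 after the start, the palindrome was present in 471 of 6601 tested genes with a promoter sequence (7.14%), in 53 of 838 genes called higher (6.32%) and in 65 of 789 called lower (8.24%). Only 26 of the 6601 windows held it more than once. The letters of the palindrome read the same on both strands, and a match is a description of the sequence only.

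Lif, a cytokine of the IL-6 family (chr11:4257557-4272514, forward strand), had the largest log2 fold change of the called genes that averaged 10 CPM or more without overlap in either stage, 3.76 ± 0.47 (adjusted p = 6.26e-05). Lif stood at 1.94, 0.571 and 1.32 CPM in IL-3 immature, 114, 112 and 129.7 in TSLP immature, 25.6, 32.1 and 37.4 in IL-3 mature and 147, 222 and 175 in TSLP mature libraries. IL-3 immature cells had almost none, and TSLP immature cells lay above all IL-3 mature cells. The effect was 6.61 in immature and 2.52 in mature cells, a difference of −4.09 (95% interval −4.96 to −3.21), so its sign but not its size was shared. The survival kinase Pim2 rose by 1.98 ± 0.20 (adjusted p = 1.50e-05), and its groups did not overlap in either stage. Myc, a growth-promoting transcription factor, rose by 1.38 ± 0.22, with 1.06 in immature and 1.79 in mature cells. The other called members were the IL-2 receptor α chain Il2ra at 1.22 ± 0.33, the transcriptional inhibitor Id1 at 1.13 ± 0.24, the feedback inhibitor Socs1 at 1.05 ± 0.28, cyclin D2 (Ccnd2) at 0.92 ± 0.21, oncostatin M (Osm) at 0.88 ± 0.27 and Bcl2l1, which encodes the survival protein BCL-XL, at 0.57 ± 0.15. For Osm and Socs1 the effect in mature cells was small, 0.01 and 0.29. Over 27 other fits, 8 to 12 members of the list were called higher and at most 1 lower.

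**Figure D2:**
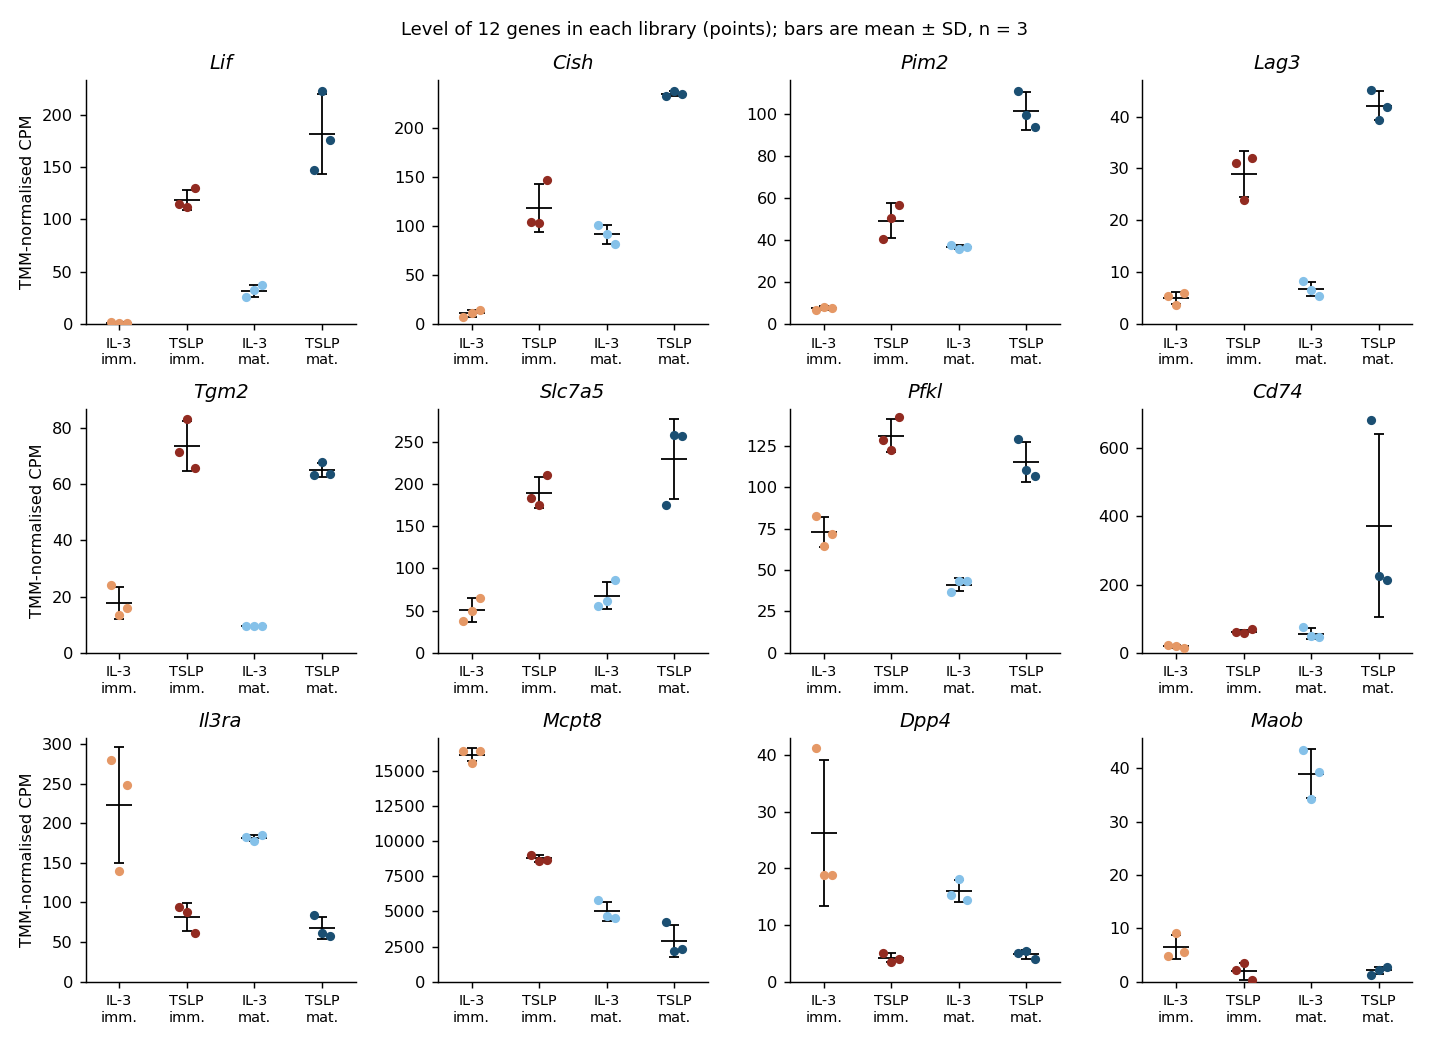
TMM-normalised CPM of 12 genes in each library (points) by group on the x axis, with mean ± SD (n = 3) as bars and the y axis from 0. In both stages the 3 TSLP libraries lie above the 3 IL-3 libraries for Lif, Cish, Pim2, Lag3, Tgm2, Slc7a5, Pfkl and Cd74 and below them for Il3ra, Mcpt8, Dpp4 and Maob.

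Of 23 tested immediate early genes and feedback phosphatases of the AP-1, EGR and ERK list, 13 were called higher and 1 lower, with a median log2 fold change of 0.93. Junb, an AP-1 subunit, stood at 85.9, 119.7 and 138 CPM in IL-3 immature, 327, 374 and 549 in TSLP immature, 590.2, 531 and 519 in IL-3 mature and 1012, 1274 and 1553 in TSLP mature libraries, with no overlap in either stage. Its log2 fold change was 1.54 ± 0.19 (adjusted p = 6.03e-05). Ier5, an immediate early gene, rose by 1.86 ± 0.20 (adjusted p = 2.36e-05), Fos by 1.31 ± 0.23, Ier2 by 1.30 ± 0.16, Jun by 0.98 ± 0.20 and Jund by 0.93 ± 0.15. The MAP kinase phosphatases Dusp10, Dusp2, Dusp5 and Dusp1 rose by 1.89, 1.77, 1.21 and 1.00. The remaining higher members, Fosb, Egr3 and Egr2, changed by 2.16, 2.19 and 1.36 in immature and by 0.45, 0.30 and 0.44 in mature cells, and Egr3 lost its call in 13 of 27 other fits. Ier3, a survival gene of the same early class, was lower at −0.72 ± 0.21 (adjusted p = 0.0172), with −0.20 in immature and −1.24 in mature cells.

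Of 15 genes of the NF-κB list, 8 were called higher and 1 lower. They included the subunits Nfkb1 (0.61 ± 0.13), Nfkb2 (0.85 ± 0.18) and Rela (0.66 ± 0.15) and the inhibitors Nfkbie (1.08 ± 0.15), Nfkbiz (1.01 ± 0.25) and Nfkbib (0.65 ± 0.18), the adhesion molecule Icam1 (0.94 ± 0.26) and the A20-binding inhibitor Tnip1 (0.57 ± 0.14). Nfkbie stood at 24.3, 22.3 and 21.9 CPM in IL-3 immature, 48.7, 68.4 and 65.7 in TSLP immature, 55.6, 62.7 and 62.7 in IL-3 mature and 108, 95.3 and 106 in TSLP mature libraries, and its groups did not overlap in either stage. Nfkbia, which encodes the main inhibitor IκBα, was the one called lower, by −0.45 ± 0.14 (adjusted p = 0.0232), and it lost that call in 3 of 27 other fits.

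Of 17 tested cytokines and chemokines, 9 were called higher and 0 lower. Apart from Lif and Osm these were Il6 at 1.35 ± 0.25, Tnf at 1.20 ± 0.24, Vegfa at 1.67 ± 0.32, Hgf at 0.75 ± 0.23 and the chemokines Ccl2 at 2.67 ± 0.54, Ccl4 at 1.03 ± 0.25 and Ccl9 at 0.88 ± 0.26. Il6 stood at 85.9, 81.4 and 73.5 CPM in IL-3 immature, 309, 282 and 459.6 in TSLP immature, 436, 333 and 351 in IL-3 mature and 648, 428 and 625 in TSLP mature libraries. The groups were apart in immature cells, while in mature cells TSLP mature 2 lay among the IL-3 libraries, and the effect was 2.13 in immature and 0.60 in mature cells. Hgf lost its call in 9 of 27 other fits. For Ccl9 and Hgf the mature effect was 0.13 and 0.11 (adjusted p = 0.703 and 0.753 for that stage alone).

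Of 29 tested surface receptors for activation, 9 were called higher and 0 lower, against 13.1% and 12.4% of all genes tested. Over the other fits 4 to 10 were higher, the fewest among transcripts of at least 1000 bases alone, and 0 to 4 lower. The activating paired receptors Pilrb1 and Pilrb2 and their inhibitory partner Pilra rose by 2.46 ± 0.35, 2.27 ± 0.36 and 2.15 ± 0.40. Pilrb1 stood at 1.46, 1.43 and 1.66 CPM in IL-3 immature, 37.0, 30.9 and 36.4 in TSLP immature, 21.02, 22.6 and 25.7 in IL-3 mature and 84.2, 51.1 and 69.2 in TSLP mature libraries. As for Lif, IL-3 immature cells held the lowest level and TSLP immature cells lay above all IL-3 mature cells. Pilrb1 and Pilrb2 share 26% of their 50-base stretches, so the split of reads between them is uncertain. The prostaglandin E receptor Ptger3 rose by 1.02 ± 0.15 and the histamine receptor Hrh4 by 0.76 ± 0.15, with differences between stages of −0.29 (95% interval −0.88 to 0.30) and −0.04 (95% interval −0.63 to 0.56). C5ar1, the complement C5a receptor, rose by 1.55 ± 0.25, Il4ra, the IL-4 receptor α chain, by 1.30 ± 0.27, Tlr2, a sensor of bacterial lipoproteins, by 1.68 ± 0.37, and Ptger4, a further prostaglandin E receptor, by 0.51 ± 0.16, with the call for Ptger4 lost in 14 of 27 other fits.

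Downstream of the IgE receptor, 6 of 22 tested genes were called higher and 0 lower, against 13.1% and 12.4% of all genes tested. All 6 were without overlap in both stages, against 7.38% of all genes tested. Over the other fits 3 to 7 were higher and at most 2 lower, with 3 higher without IL-3 immature 2 and without IL-3 mature 3. The kinase Syk, which binds the phosphorylated receptor, stood at 48.5, 56.8 and 74.2 CPM in IL-3 immature, 98.6, 112 and 123 in TSLP immature, 110.4, 95.1 and 101 in IL-3 mature and 158, 172 and 179.7 in TSLP mature libraries, and rose by 0.81 ± 0.13 (adjusted p = 4.85e-04). Ptpn6 is named above, and the others were the kinase Prkcd at 0.54 ± 0.16, the phospholipase Plcg2 at 0.52 ± 0.14, the exchange factor Vav1 at 0.48 ± 0.13 and the adaptor Lcp2 at 0.43 ± 0.14, and the calls of Lcp2 and Prkcd were lost in 18 and 7 of 27 other fits. The receptor subunits themselves were not called: Fcer1a stood at 0.02 ± 0.19, Ms4a2 at −0.11 ± 0.13 and Fcer1g at −0.11 ± 0.22. Of 12 genes of histamine and eicosanoid handling, 5 were higher and 2 lower, but only 1 was higher with the size factors of DESeq2, with TMM on uncalled genes and without the ribosomal RNA entries, and 1 to 4 were higher without 1 library. Alox5, the 5-lipoxygenase that starts leukotriene synthesis, rose by 0.54 ± 0.14 (adjusted p = 0.00875) and was called in all 27 other fits. Hdc, which makes histamine, stood at 0.43 ± 0.14 (adjusted p = 0.0371) and lost its call in 19 of 27. Slc18a2, the transporter that loads amines into granules, was lower at −0.82 ± 0.21 (adjusted p = 0.00875), and the other lower member was Maob, described below. Ptgs2 (COX-2) at 0.91 ± 0.32 lost its call in 21 of 27 other fits.

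Of 21 tested glycolytic genes, 12 were called higher and 0 lower, against 13.1% and 12.4% of all genes tested. The median log2 fold change was 0.61. In all 12 every TSLP library lay above every IL-3 library of its stage, against 7.38% of all genes tested. Pfkl, the liver-type phosphofructokinase, stood at 83.0, 64.8 and 71.8 CPM in IL-3 immature, 129, 123 and 142 in TSLP immature, 36.7, 43.3 and 43.3 in IL-3 mature and 129, 110.4 and 107 in TSLP mature libraries. Its log2 fold change was 1.16 ± 0.15 (adjusted p = 6.83e-05). Aldolase A (Aldoa) rose by 1.05 ± 0.15, and the glucose transporter Slc2a1, the lactate exporter Slc16a3 and lactate dehydrogenase A (Ldha) rose by 0.87 ± 0.17, 0.72 ± 0.16 and 0.68 ± 0.16. For Pgk1, Tpi1, Gapdh and Pgam1 the effect was larger in mature cells, at 1.09, 1.10, 1.03 and 1.10 against 0.42, 0.33, 0.38 and 0.30 in immature cells, while Slc2a1 and Slc16a3 moved more in immature cells. Over the other fits 6 to 14 members were called higher and 0 lower.

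Of 20 genes of amino acid supply and the ATF4 response, 4 were higher and 2 lower, the share lower being near the 12.4% of all genes tested. Both chains of the large neutral amino acid transporter, Slc7a5 and Slc3a2, rose by 1.83 ± 0.17 (adjusted p = 8.86e-06) and 0.74 ± 0.12 (adjusted p = 5.90e-04). Slc7a5 (chr8:121881150-121907694, reverse strand) stood at 37.4, 49.99 and 65.6 CPM in IL-3 immature, 183, 176 and 211 in TSLP immature, 55.2, 61.9 and 86.6 in IL-3 mature and 175, 258 and 257 in TSLP mature libraries. No IL-3 library of either stage came near the lowest TSLP library. Slc7a5 changed by 1.89 in immature and 1.76 in mature cells and Slc3a2 by 0.72 in immature and 0.76 in mature cells. Slc7a11, the cystine transporter, and Nars, the asparaginyl-tRNA synthetase, were lower at −1.06 ± 0.19 and −0.78 ± 0.14. Sesn2, a stress-induced inhibitor of mTORC1, and Cebpb rose by 1.25 ± 0.20 and 0.80 ± 0.16.

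**Figure D3:**
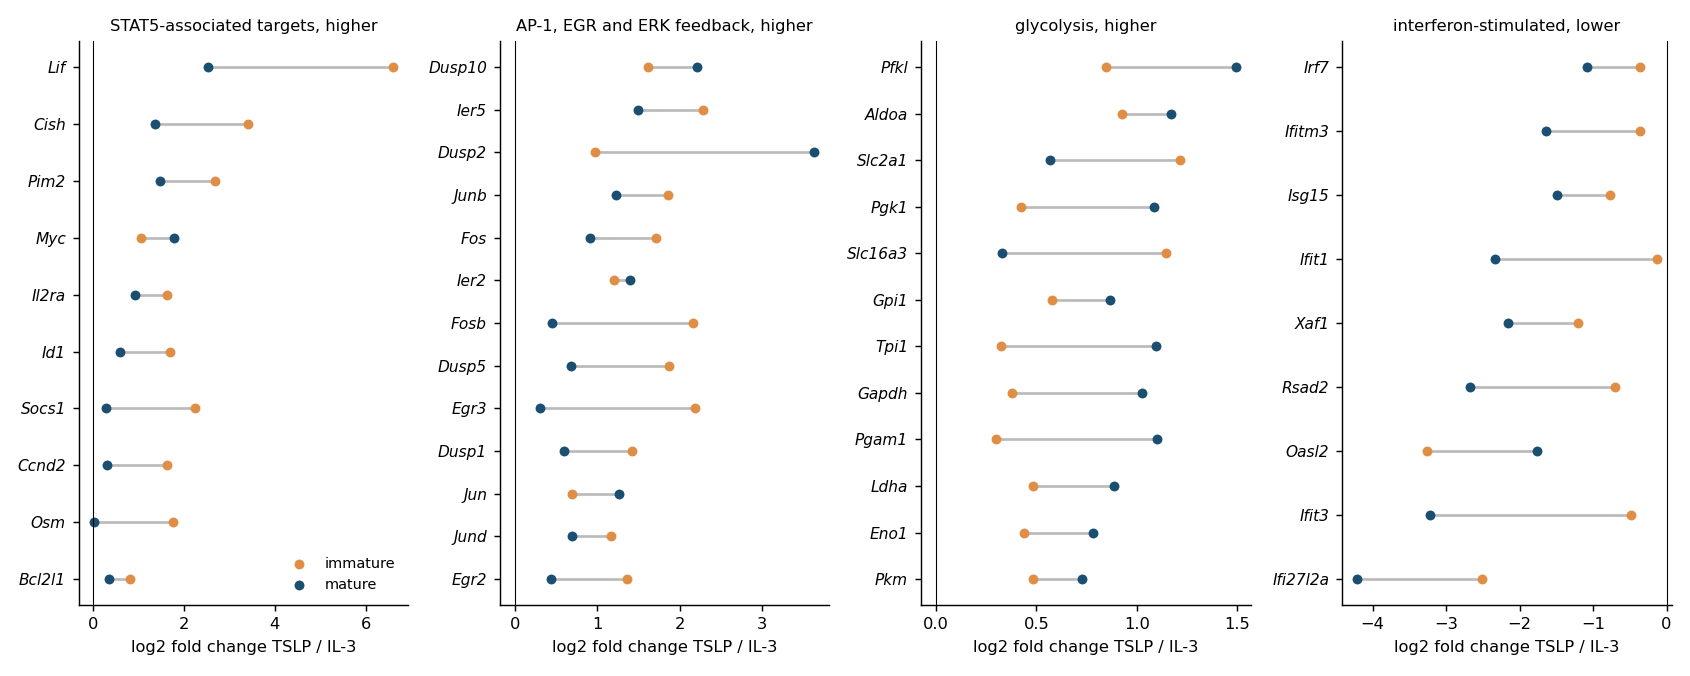
Log2 fold change of TSLP against IL-3 (x axis) in immature (orange) and mature (dark blue) BMBAs for the called members of 4 gene lists, 1 gene per line. 9 of 10 STAT5-associated and 9 of 13 AP-1, EGR and ERK genes lie farther right in immature cells, 10 of 12 glycolytic genes lie farther right in mature cells, and 8 of 9 interferon-stimulated genes lie farther left in mature cells.

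Of 12 tested MHC class II genes, 8 were called higher and 0 lower, with a median log2 fold change of 1.13. Cd74, the invariant chain, stood at 24.3, 18.9 and 13.9 CPM in IL-3 immature, 60.7, 57.8 and 68.8 in TSLP immature, 76.2, 48.4 and 45.1 in IL-3 mature and 683, 224 and 212 in TSLP mature libraries. The groups did not overlap in either stage, and TSLP mature 1 stood far above the other TSLP mature libraries. Cd74 rose by 2.26 ± 0.30 (adjusted p = 1.10e-04), H2-Eb1 by 1.94 ± 0.37, H2-Aa by 1.66 ± 0.39, H2-Ab1 by 1.07 ± 0.29, H2-DMa by 1.80 ± 0.29 and Ciita, the transactivator of these genes, by 2.09 ± 0.45. H2-Ob, which modulates peptide loading, rose by 1.16 ± 0.18 (1.15 in immature and 1.17 in mature cells), and the co-stimulatory Cd86 rose by 1.10 ± 0.31.

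B cell markers and a few monocyte and macrophage markers were higher too. All 4 tested B cell markers were called higher: Ms4a1 (CD20) at 5.21 ± 0.75, Cd79a at 3.88 ± 0.78, Cd79b at 2.96 ± 0.61 and Cd22 at 2.05 ± 0.60. Cd22 was not called without TSLP mature 1 (adjusted p = 0.0602), and DESeq2 gave an adjusted p for only 1 of the 4, which it called. The summed level of 12 B cell markers ran from 3.64 to 10.7 CPM in IL-3 libraries and from 25.0 to 47.7 in 5 TSLP libraries, and was 210.2 in TSLP mature 1. Of the defining markers, the transcription factor Pax5 summed to 18 counts over the TSLP immature libraries against 0 with IL-3, and to 52 over the TSLP mature libraries against 7 with IL-3. Of 11 monocyte and macrophage markers 3 were higher (Mrc1 3.25 ± 0.52, Adgre1 2.03 ± 0.35, Ly6c2 1.28 ± 0.32) and Cx3cr1 was lower at −3.10 ± 0.43. The sum of the 11 was 25.2 to 60.2 CPM in IL-3 immature against 105 to 131 in TSLP immature libraries. In mature libraries it was 263 to 376 with IL-3, against 698 in TSLP mature 1 and 441 and 386 in the other TSLP libraries. In mature cells Ly6c2 stood at 162, 126 and 133 CPM with IL-3 and at 328, 148 and 127 with TSLP, highest in TSLP mature 1. Of 8 dendritic cell markers, 2 had enough counts to be tested, Itgax at 0.64 ± 0.56 and Bst2 at −0.34 ± 0.18, and neither was called. Without TSLP mature 1, the same 8 of the 12 MHC class II genes were called higher and 1 other was called lower, and Cd74 rose by 1.78 (adjusted p = 6.87e-06). The part of other cells in the MHC class II result beyond that library was not tested.

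Of the 20 pathway lists, that of interferon-stimulated genes had the most genes lower, 9 of 28 tested against 1 higher, with a median log2 fold change of −0.40. Over the other fits 4 to 12 were lower, the fewest among transcripts of at least 1000 bases alone and the most without TSLP mature 1. Ifi27l2a, a small interferon-induced mitochondrial protein (chr12:103442167-103443680, reverse strand), stood at 14.1, 9.14 and 9.27 CPM in IL-3 immature, 2.41, 2.73 and 0.341 in TSLP immature, 59.8, 63.4 and 41.9 in IL-3 mature and 5.13, 2.55 and 0.923 in TSLP mature libraries. No TSLP library reached its IL-3 counterparts, and the log2 fold change was −3.64 ± 0.37 (adjusted p = 1.82e-05), the largest decrease among such genes. It was still called with the trend of transcript length removed. The antiviral genes Rsad2, Ifit3, Ifit1 and Xaf1 were lower at −1.79 ± 0.39, −2.39 ± 0.48, −1.56 ± 0.41 and −1.73 ± 0.25, Isg15 at −1.22 ± 0.28 and the interferon regulatory factor Irf7 at −0.76 ± 0.23. Rsad2 stood at 5.34, 6.86 and 10.3 CPM in IL-3 immature, 4.81, 6.25 and 3.06 in TSLP immature, 25.3, 27.3 and 23.5 in IL-3 mature and 1.08, 7.66 and 3.08 in TSLP mature libraries, so that the groups overlapped in immature cells and were apart in mature cells, where the levels were higher with IL-3. For Ifit1, Ifitm3 and Irf7 the immature effect was −0.13, −0.36 and −0.36, against −2.33, −1.64 and −1.08 in mature cells. The single higher member, the nucleic acid sensor Zbp1, rose by 0.77 ± 0.24 and lost its call in 9 of 27 other fits.

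Of 19 tested genes of basophil identity and granules, 2 were called higher and 2 lower, near the 13.1% and 12.4% of all genes tested. Mcpt8, the basophil-specific protease, stood at 16424, 15574 and 16382 CPM in IL-3 immature, 9037, 8592 and 8667 in TSLP immature, 5775, 4686 and 4510.3 in IL-3 mature and 4236, 2166 and 2290.4 in TSLP mature libraries. The groups did not overlap in either stage, and the log2 fold change was −0.83 ± 0.18 (adjusted p = 0.0037), with a difference between stages of 0.10 (95% interval −0.61 to 0.80). Cpa3, carboxypeptidase A3, fell by 0.96 on the log2 scale, with −0.91 in immature and −1.01 in mature cells (SE 0.15, adjusted p = 3.23e-04). The azurophil granule protease Ctsg, a gene of myeloid progenitors, stood at −0.87 ± 0.18 (adjusted p = 0.00209). In contrast, Gata1, a transcription factor of the basophil lineage, stood at 0.51 ± 0.16 (adjusted p = 0.0253) and the tetraspanin Cd9 at 0.50 ± 0.17 (adjusted p = 0.038), and these calls were lost in 9 of 26 and 19 of 27 other fits. The other 15 tested genes of this list, among them Gata2 at 0.20 ± 0.14, Cd200r3 at 0.08 ± 0.13 and Prss34 at 0.12 ± 0.21, did not pass the test.

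Of 22 genes of protein folding in the endoplasmic reticulum, 5 were called lower and 2 higher. Sdf2l1, a co-chaperone, stood at 588, 434 and 412 CPM in IL-3 immature, 152, 142 and 85.1 in TSLP immature, 51.3, 38.2 and 48.3 in IL-3 mature and 27.2, 17.0 and 16.6 in TSLP mature libraries, and the log2 fold change was −1.58 ± 0.21 (adjusted p = 8.91e-05). Hsp90b1 (GRP94) and Pdia3, a disulphide isomerase, were lower at −0.81 ± 0.14 and −0.65 ± 0.16. The disulphide isomerase P4hb and the transcription factor Xbp1 were higher at 0.60 ± 0.16 and 0.43 ± 0.14, the second losing its call in 13 of 27 other fits. Sec61b, a subunit of the translocon with a short transcript, stood at −1.07 ± 0.28. It was not called with the offsets for transcript length described below, which left short transcripts above the median of all genes. Of 28 lysosomal genes, 7 were higher and 3 lower, and over the other fits 3 to 8 were higher and 3 to 7 lower. The share lower was near the 12.4% of all genes tested. The cathepsins Ctsh and Ctsz rose by 1.12 ± 0.28 and 0.75 ± 0.18, and the cholesterol carrier Npc2 was lower at −1.07 ± 0.22.

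Among single genes with long transcripts, the decreases were led by Maob, monoamine oxidase B (chrX:16709282-16817366, reverse strand). Maob stood at 4.85, 9.14 and 5.63 CPM in IL-3 immature, 2.10, 3.52 and 0.341 in TSLP immature, 43.5, 34.2 and 39.2 in IL-3 mature and 1.35, 2.27 and 2.77 in TSLP mature libraries. The IL-3 mature libraries stood apart from all others, and every TSLP library was below the IL-3 libraries of its stage. The log2 fold change was −3.29 ± 0.41 (adjusted p = 6.03e-05). Dpp4, a cell-surface dipeptidase that trims chemokines (chr2:62330073-62412231, reverse strand), stood at 41.2, 18.9 and 18.9 CPM in IL-3 immature, 5.11, 3.52 and 4.09 in TSLP immature, 15.3, 18.2 and 14.4 in IL-3 mature and 5.13, 5.39 and 4.0 in TSLP mature libraries. The TSLP libraries of both stages sat at the same low level, and the log2 fold change was −2.14 ± 0.26 (adjusted p = 5.38e-05). Also lower were the small GTPase Rab3c at −2.71 ± 0.25, the SNARE regulator complexin 2 (Cplx2) at −2.02 ± 0.30 and scinderin (Scin), which severs actin, at −2.56 ± 0.25. Scin stood at 81.0, 81.7 and 87.4 CPM in IL-3 immature, 8.72, 7.81 and 11.9 in TSLP immature, 16.4, 13.1 and 13.1 in IL-3 mature and 3.24, 3.12 and 6.77 in TSLP mature libraries, a fall of 3.13 on the log2 scale in immature cells, where its IL-3 level was highest. The ephrin Efnb2, the tetraspan protein Emp2 and the homeobox gene Rhox8 were lower at −2.30 ± 0.36, −2.27 ± 0.28 and −2.43 ± 0.25. These genes were taken from those with transcripts of at least 1000 bases that were still called with the length trend removed, a choice made after their values were seen.

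**Figure D4:**
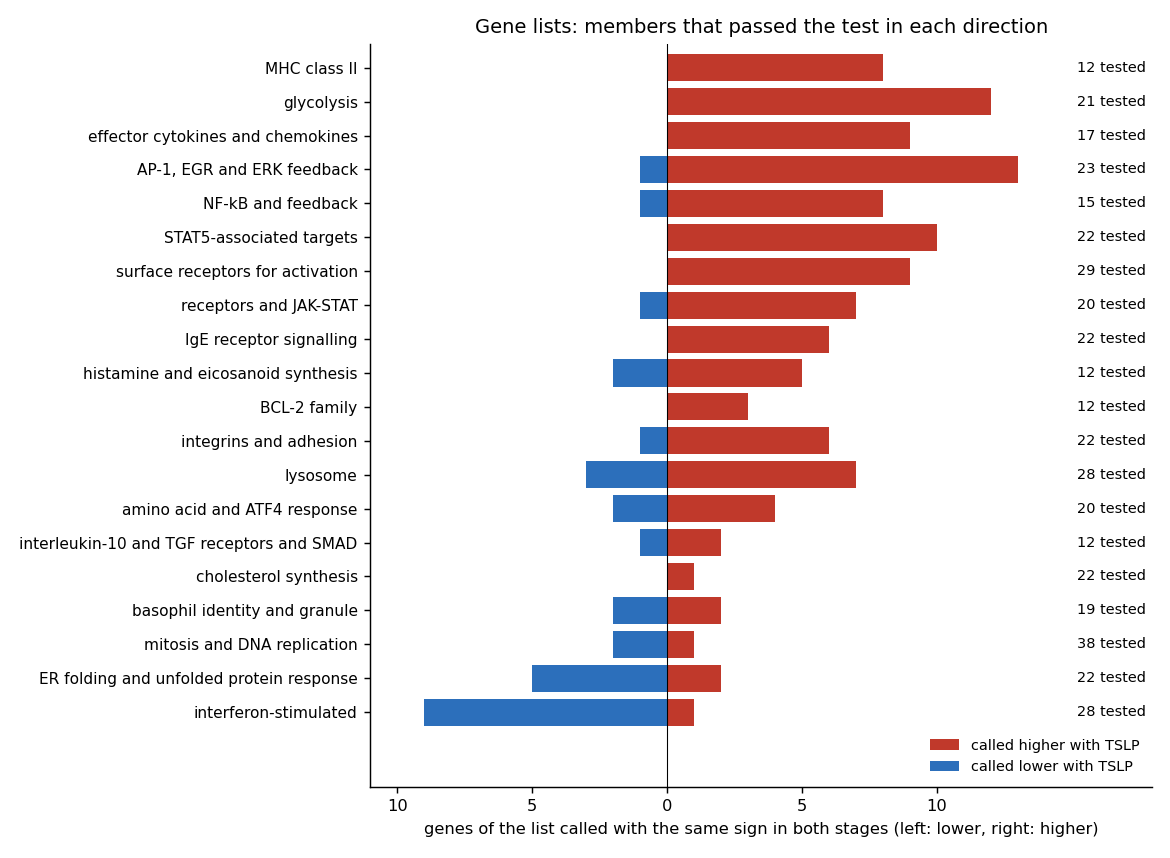
Number of genes called with the same sign in both stages in each of 20 gene lists, higher with TSLP to the right (red) and lower to the left (blue), with the number tested at the right edge. The lists run from the largest net share of higher genes at the top to interferon-stimulated genes, with 9 lower and 1 higher, at the bottom.

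Short transcripts were lower in TSLP libraries as a class. Of 276 tested genes with a transcript under 500 bases, 41.7% were called lower and 11.2% higher, and their median log2 fold change was −0.46. In the classes from 1000 bases upwards 8.21% to 10.8% were lower and 11.8% to 14.8% higher. The median level of the short transcripts, as a log2 deviation from the mean of the 12 libraries, ran from 0.22 to 0.41 in IL-3 and from −0.86 to 0.13 in TSLP libraries, lowest in TSLP mature 3 and TSLP immature 3. 9 of the 12 genes ranked lowest by log2 fold change had transcripts under 1000 bases, such as Rpl38 at −2.66 ± 0.42, Cops9, a subunit of the COP9 signalosome, at −2.75 ± 0.41 and Ndufa3 at −2.66 ± 0.40. Rpl38 stood at 555, 552 and 480.4 CPM in IL-3 immature, 177, 193 and 31.7 in TSLP immature, 536, 522 and 606 in IL-3 mature and 74.7, 71.2 and 15.7 in TSLP mature libraries, lowest in replicate 3 of both TSLP groups, and it shares 27.4% of its 50-base stretches with a pseudogene. The cause was not tested.

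Of 79 tested cytosolic ribosomal protein genes, 54 were called lower and 2 higher, with a median log2 fold change of −1.27. Of 46 NADH dehydrogenase (Nduf) genes of mitochondrial complex I, 22 were lower and 1 higher. Both families were picked after their values were seen. With offsets that removed each library's trend of level with transcript length, 51 ribosomal protein genes and 19 Nduf genes were called lower, of which 50 and 18 had been called lower without the offsets, and the medians were −0.92 and −0.47. Without TSLP immature 3 and TSLP mature 3 the numbers were 53 and 18. Over all other fits they ranged from 7 to 64 and from 3 to 28, with a median below 0 in each. With these offsets 1544 genes in all were called higher (14.2%) and 1478 lower (13.6%), of which 1293 and 1227 were among the calls without offsets, and the counts for the lists above kept within 2 of the values given except for surface receptors, of which 4 were then called lower against 0 before.

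**Figure D5:**
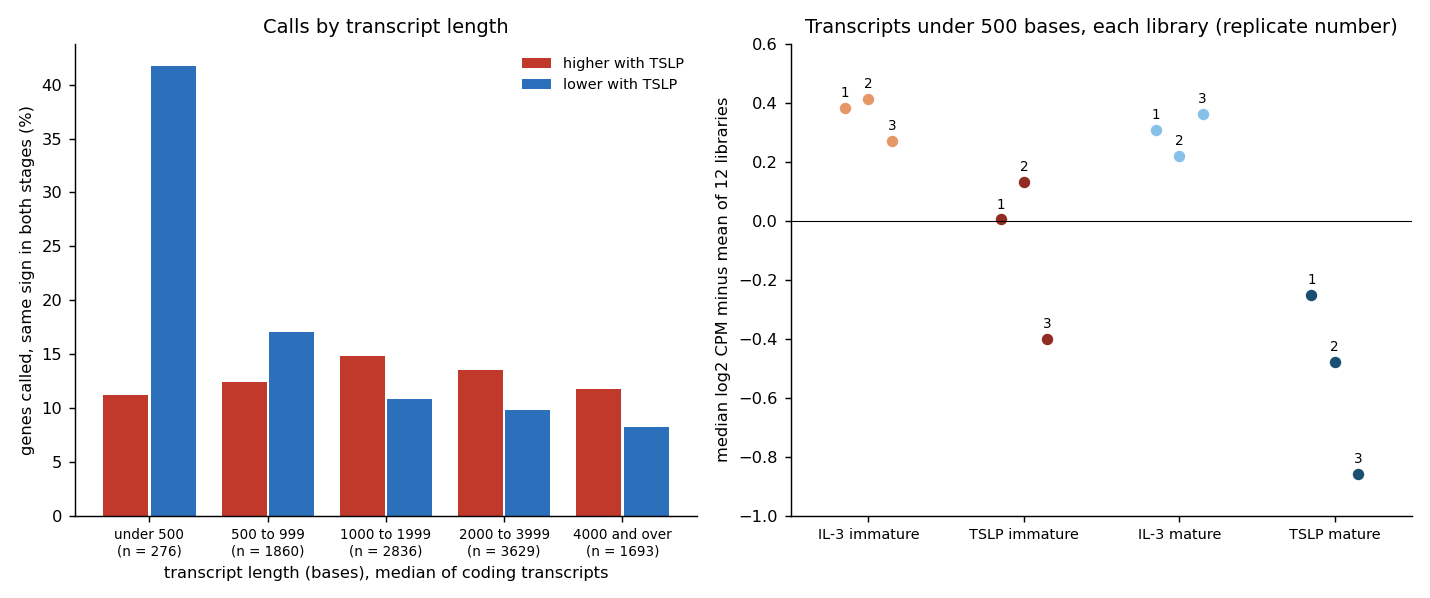
Left, share of genes called higher (red) and lower (blue) with TSLP in 5 classes of transcript length. Right, median log2 deviation of 276 transcripts under 500 bases in each library, with replicate numbers, where the 6 IL-3 libraries (0.22 to 0.41) lie above the 6 TSLP libraries (−0.86 to 0.13).

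Cell cycle and sterol genes mostly differed in sign between stages. Of 38 genes of mitosis and DNA replication, 1 was higher (Pcna, 0.69 ± 0.21, with 19.1% of its 50-base stretches shared with a pseudogene) and 2 were lower (Cenpf, −0.55 ± 0.19, and E2f2, −0.43 ± 0.14). These calls were lost in 7, 11 and 7 of 27 other fits, and Pcna was not called without TSLP mature 1 (adjusted p = 0.0516). Only 4 of the 38 genes had the same sign in both stages. Mki67, for example, stood at −0.64 in immature and 1.46 in mature cells. In cholesterol synthesis 4 of 22 genes had the same sign and 1 was called, higher. Of 22 tested genes of integrins and adhesion, 6 were called higher (3 to 8 over the other fits) and 1 lower, Dpp4, described above. Of all genes tested 13.1% were higher and 12.4% lower. The largest rises were those of Itgb3 (1.21 ± 0.22) and Itgam (1.14 ± 0.24). These changed by 1.90 and 1.93 in immature and by 0.56 and 0.37 in mature cells. Itgam shares 66.3% of its 50-base stretches with an annotated read-through gene. CD49b itself (Itga2), 1 of the sorting markers, had opposite signs (1.67 in immature and −0.55 in mature cells). Itga2 stood at 31.05, 28.3 and 22.5 CPM in IL-3 immature and 81.5, 89.1 and 88.5 in TSLP immature libraries. In mature libraries it stood at 192, 240 and 309 with IL-3 and at 96.9, 209 and 199 with TSLP. Of 12 tested genes of the BCL-2 family, Bid, Bcl2l1 and Bak1 were called higher, at 0.61 ± 0.15, 0.57 ± 0.15 and 0.42 ± 0.13. None of the 12 was called lower, and the shares of all genes tested were 13.1% higher and 12.4% lower. Bak1 lost its call in 16 of 27 other fits. Of receptors for IL-10 and TGF-β, Il10ra rose by 1.26 ± 0.23 and Tgfbr2 by 0.66 ± 0.14, and Il10rb was lower at −0.97 ± 0.18.

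Leaving out TSLP mature 1, the library with the high B cell markers, gave 3063 genes called, 3020 of them with the same sign, 1278 higher and 1742 lower. Of these, 2410 had been called in the same direction with all 12 libraries. Of the STAT5-associated genes 10 were then higher, of the AP-1 list 14, of glycolysis 12, of the effectors 7, of the receptors and JAK-STAT genes 6, and of interferon-stimulated genes 12 were lower. Il3ra stood at −1.57, Lif at 3.90, Cish at 2.33, Lag3 at 2.50, Tgm2 at 2.32 and Slc7a5 at 1.85 without it. The ER list then had 8 lower genes, the lysosomal list 7, and basophil identity and granule genes 4 lower and 0 higher. Of 12 neutrophil markers, none was called with the same sign in both stages with all 12 libraries, and 7 were called lower without TSLP mature 1. The sum of the 12 was 1521 CPM in TSLP mature 1, 710 and 691 in the other TSLP mature and 1242 to 1463 in the IL-3 mature libraries. Cxcr2 was its largest part in mature libraries, at 660, 642 and 631 CPM with TSLP and 1010.5, 913 and 948 with IL-3. The granule gene S100a9 stood at 283 CPM in TSLP mature 1 and at 9.36 and 4.62 in the other TSLP mature libraries. In IL-3 mature libraries S100a9 stood at 132, 98.7 and 101 CPM. Gata1 and Cd9 were not called without TSLP mature 1 (adjusted p = 0.0693 and 0.0971).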

How the data were processed

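RNA of sorted BMBAs was captured with oligo(dT) beads, amplified by a whole-transcriptome method, fragmented and sequenced on an Ion Proton. The authors deposited raw counts of reads per gene. Their methods and the labels name Cutadapt, Bowtie2 and, for the comparison of groups, TCC. The methods name reference RNA of GRCm38, and the labels both mm10, the same assembly, and GRCm39. The table has an unnamed line that holds 50% of each column's sum, that is, the total, and it was dropped. All 12 columns were mapped to samples.

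Genes were kept by filterByExpr (minimum count 10, minimum total 15), scaled by TMM and tested in edgeR 4.0.16 (R 4.3.3) by the quasi-likelihood test with stage and cytokine as terms. P-values were adjusted by Benjamini-Hochberg over all 10861 genes, and a gene was called at an adjusted p under 0.05. A second fit with 1 mean per group gave the effect in each stage, the sign and the difference between stages. All fold changes are log2 of TSLP over IL-3, ± SE. The SE is the size of the log2 fold change divided by the square root of the F statistic, which is unreliable for values near 0. Totals of 1720065 to 3685285 counts give a biological coefficient of variation of 22.5%, and counts are of reads, not of molecules.

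Named were all tested receptor and JAK-STAT genes and 2 members per list and direction. In each direction the 12 called genes with the largest log2 fold change (mean of at least 10 CPM and no overlap in either stage) were also named. To these came, in each direction, the 3 with at least a 2-fold change and the narrowest interval around an equal effect in both stages. Some genes that the rule names are not reported here. Other called members of the lists were named after their values were seen. Members and lists were chosen with earlier results of these data known. DESeq2 1.42.0, limma 3.58.1 (voom), other scalings, filters, thinning to 1720065 counts, a replicate block and the omission of each library were alternatives. Offsets for transcript length, the limit to transcripts of at least 1000 bases, the joint omission of libraries and the removal of all ribosomal RNA entries were added after seeing the data, which makes 27 fits. Lengths and coordinates are from GENCODE mouse release 21 (GRCm38), an annotation release that may not be the authors' own, and were matched by symbol. The test was tested on simulated data before use.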

Additional observations from a re-analysis of the deposited data

Results flagged for a closer look

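For 17 of the 100 genes named by a rule, the effect of TSLP against IL-3 differed between the stages when the difference itself was tested. The test was edgeR's quasi-likelihood test on the effect in mature minus that in immature cells (adjusted p under 0.05 over all genes tested). Values are log2 differences, and a negative value means a smaller rise, or a larger fall, in mature cells.

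Of the genes higher with TSLP, the difference was −4.09 for Lif, −2.92 for Pilrb1, −2.84 for the serpin Serpina3g, −2.65 for Pilrb2, −2.05 for Cish, −1.88 for Pdzd4, −1.83 for Ptgs2, −1.56 for Itgam, −1.53 for Il6, −1.33 for Itgb3, −1.32 for Il10ra and −1.28 for the coagulation factor F13a1. In IL-3 immature cells Lif and Pilrb1 had means of 1.28 and 1.51 CPM, so that these differences rest on few counts in that group. For Pcna, also higher, it was 1.34. Of the lower genes, Efnb2 and Cplx2 fell more in mature cells, by differences of −1.99 and −1.69, and Scin fell more in immature cells, with 1.42. Il7r, with effects of opposite sign, had a difference of −3.65. The reasons were not tested.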

How the results depend on the processing

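Requiring a call in each stage on its own left 704 genes, 641 with the same sign, 264 higher and 377 lower. Transcripts of at least 1000 bases alone gave 1847 calls, 1825 with the same sign and 863 higher, from fewer genes tested. Without TSLP immature 3 and TSLP mature 3 there were 1788, 1780 and 813, and without TSLP mature 1 as well 1848, 1812 and 752, from fewer libraries. Thinning gave 847 higher genes and 273 differences between stages. Leaving out 1 library at a time gave 886 to 1278 higher genes and 240 to 723 differences between stages, the most without TSLP mature 1. Without Rn45s and its mature parts there were 2630 calls, 1110 higher and 1496 lower with the same sign. The replicate block gave 2782 calls, 2766 with the same sign, 1374 higher and 1392 lower. Correlations of same-numbered libraries ran from −0.077 to 0.388 and those of differently numbered ones from −0.305 to 0.272. The numbers were not taken as pairs in the fit reported, since the methods name no pairing. Whether same-numbered libraries share a culture was not tested. Of 100 genes named by a rule, the long-transcript genes among them, 89 were called. Of these, 21 lost the call in at least 1 of 27 fits, and 20 did so without the length offsets. Csf2rb and Jak3 lost it in 23 fits each. Other called list members named in the text are not among the 89. Some of those lost the call too, such as Hdc in 19, Lcp2 in 18 and Bak1 in 16 of 27 fits. None of the 89 changed sign. Signs turned for uncalled genes: Il7r (0.165, 0.254, 0.169 and 0.677, and −0.478 to 0.249 without 1 library, against −0.06 in the fit reported), Ptpn11 (0.012 and 0.021, and −0.139 to 0.005 without 1 library), Tyk2 (−0.014 to 0.113), Il5ra (−0.016) and Csf2ra (−0.006 to 0.262). The causes were not tested.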
